A study of Homo sapiens with 2 samples.

Results

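The genes described here are 36 that encode the machinery of glucose use: glucose and lactate transporters, the enzymes of glycolysis, the PFKFB, TIGAR and PDK regulators, and enzymes of the pentose phosphate branch. They were taken by gene symbol from a list with no threshold on their values, drawn up with earlier results of these data known, and all 36 were found among the 58735 gene identifiers of each table. RNA was sequenced from BT549, a breast cancer line of the triple-negative, mesenchymal kind. The first culture expressed a scrambled hairpin as control and the second the hairpin shSIK2, which targets transcripts of the salt-inducible kinase SIK2. Both cultures had received the ligand Wnt3a for 2 h, so no untreated state was measured. There was 1 library of each, so nothing was checked across replicates and no p-value could be given.

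Glycolysis splits glucose into pyruvate in the cytosol and yields ATP and NADH. Tumour cells often turn much of that pyruvate into lactate, which monocarboxylate transporters carry out of the cell. The pentose phosphate branch leaves at glucose phosphate; its oxidative arm makes NADPH, and its non-oxidative arm exchanges sugar carbons between ribose phosphate and glycolysis. The PFKFB enzymes and TIGAR set the level of a sugar phosphate that activates phosphofructokinase, and PDK kinases hold back the entry of pyruvate into the citric acid cycle.

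Levels are given in FPKM, as deposited, in which reads are divided by the length of the gene. Whole reads could be recovered from them, with totals of 18019225 in the scrambled and 16347399 in the shSIK2 library. Folds are ratios of these reads with exact (Clopper-Pearson) 95% intervals, which cover counting error only. A gene counted as higher or lower when its log2 ratio of shSIK2 over scrambled, with 0.1 added to each FPKM value, reached 2-fold, and as measured where the larger of its values was 1 FPKM or more. The deposited values were not scaled to the read totals; equal totals would add 0.14 to each log2 ratio and bring the median over the 12866 measured genes to 0.03, from -0.11. For SIK2 itself, the target of the hairpin, 1312 reads were counted in the control and 599 after the knockdown, a fall of 2.19-fold (1.99 to 2.42). All 4 mesenchymal markers were measured, VIM at 260 and 283 FPKM, ZEB1 at 29.6 and 26.1, FN1 at 13.0 and 9.82 and CDH2 at 2.44 and 0.40, scrambled first. VIM was thus slightly higher in the shSIK2 library and the other 3 were lower. Of the luminal markers GATA3 alone was measured, at 11.5 and 18.6 FPKM; ESR1, PGR and CDH1 lay at or near 0. No leukocyte, endothelial or red cell marker of the lists reached 1 FPKM, and HBB, HBA1, PECAM1 and CD3E had no reads.

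In the shSIK2 library 6 of the 36 genes were higher by 2-fold or more, 1 was lower and 29 lay between. Among all 25018 genes with any reads the shares were 16.0% higher and 10.5% lower, against 16.7% and 2.78% here. The only lower gene, SLC2A3, rested on 22 reads against 1. With the minimum of 1 FPKM 32 of the 36 were measured, 6 of them (18.8%) higher by 2-fold or more and 0 lower. The shares over all measured genes were 11.0% and 8.28%. PFKFB4 passed that minimum through the shSIK2 library alone. The 6 were SLC16A3, ALDOC, PFKFB4, TKT, GAPDH and PFKFB3, and ENO2 and PGD lay just under the limit at log2 ratios of 0.99 and 0.94. At equal totals these too passed it, which made 8 higher and 0 lower, beside 13.4% and 6.04% of all measured genes. The median log2 ratio of the 32 was 0.29, and 24 of them lay above 0; over all measured genes 43.6% did. At a limit of 1.5-fold 8 were higher and 3 lower (HK2, RPIA and RPE), where 19.7% and 21.3% of all measured genes passed. At equal totals these 3 were 1.37-fold, 1.39-fold and 1.46-fold lower by reads, short of that limit.

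The 4 roles were compared by their counts and medians. Of the measured transporters 1 of 3 was 2-fold higher, with a median log2 ratio of 0.34, and of the glycolytic enzymes 2 of 17, with 0.25. The share of the glycolytic enzymes, 11.8%, was close to the 11.0% of all measured genes, whose median was -0.11. Among the regulators 2 of 6 were higher, with a median of 0.46. In the pentose phosphate branch it was 1 of 6, with 0.15, which turned to -0.07 after correction for exon GC content and length. In no role was a measured gene 2-fold lower, while 8.28% of all measured genes were. Each role thus had only 1 or 2 genes past the limit, too few to set the roles apart by these counts. The reads gave another order than the medians, since they weigh abundant genes. Those of the pentose phosphate branch were 2.50-fold higher in the shSIK2 library (2.46 to 2.54), and those of the regulators 1.60-fold (1.53 to 1.67). Both folds rest largely on 1 gene. TKT held 14531 of 21977 branch reads in the scrambled and 44680 of 54886 in the shSIK2 library. PFKFB3 held 1609 of 3376 and 3304 of 5405 reads of the regulators. Reads of the glycolytic enzymes were 1.16-fold higher (1.15 to 1.17). Reads of the transporters were slightly fewer (ratio 0.955, 0.920 to 0.991), yet a slightly larger share of the smaller library, 0.0335% against 0.0318%, so their direction turned at equal totals.

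**Figure D1:**
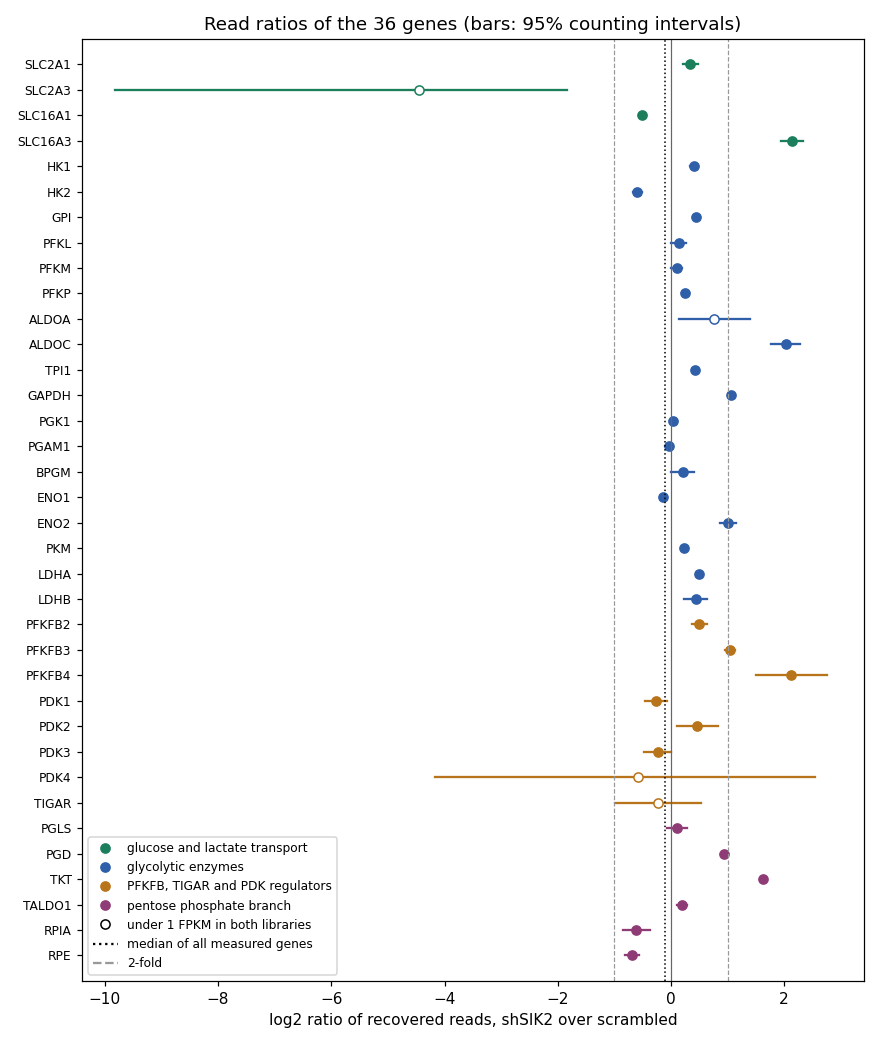
Log2 ratio of recovered reads (shSIK2 over scrambled, horizontal axis) for each of the 36 genes, coloured by role, with 95% counting intervals as bars; open circles had under 1 FPKM in both libraries, the dotted line is the median of all measured genes and dashed lines mark 2-fold. SLC16A3, ALDOC, PFKFB4 and TKT stand farthest to the right, most other genes lie between the dashed lines, and the interval of SLC2A3 is wide because it rests on 22 reads and 1 read.

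The set took up more of the shSIK2 library. Its 36 genes held 197848 reads or 1.10% of the scrambled library (95% Clopper-Pearson interval 1.09 to 1.10) and 259493 reads or 1.59% of the shSIK2 library (1.58 to 1.59). A few genes carried this total. ENO1, GAPDH, PKM and TKT together had 138852 and 186659 of those reads. TKT alone went from 0.0806% to 0.273% of the library, and GAPDH from 0.0978% to 0.224%. ENO1, the most abundant of the 36 per length, held 0.407% and 0.406%.

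**Figure D2:**
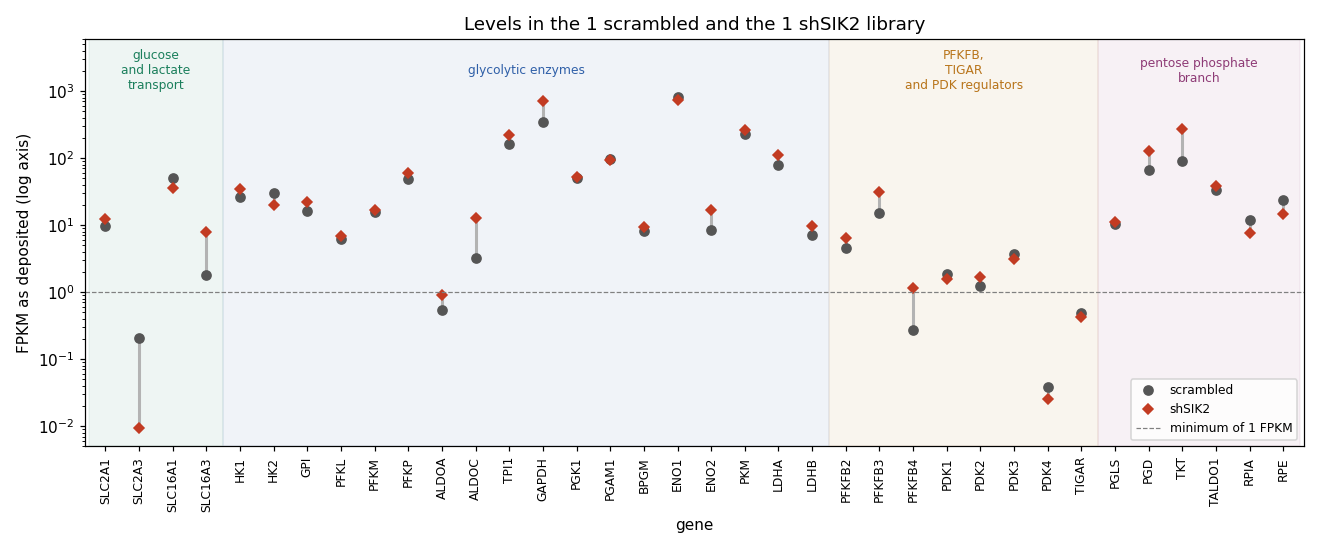
FPKM as deposited (log axis) of each gene in the scrambled library (circles) and the shSIK2 library (diamonds), joined by a grey bar, with the 4 roles shaded and the minimum of 1 FPKM dashed. ENO1 and GAPDH reach 809 and 714 FPKM at the top, and the largest gaps between the libraries among measured genes are those of SLC16A3, ALDOC, PFKFB4 and TKT.

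The lactate transporters differed in opposite directions. SLC16A3 (chromosome 17, 82228397 to 82261129, GRCh38) encodes the exporter MCT4, typical of highly glycolytic cells. It stood at 1.79 FPKM in the scrambled and 7.88 FPKM in the shSIK2 library. Its 276 and 1216 reads made a 4.41-fold difference (3.86 to 5.04), and 3.17% of measured genes had a log2 ratio at least as high. SLC16A1, the transporter MCT1, went the other way, at 51.1 FPKM in the scrambled and 35.9 FPKM in the shSIK2 library, 1.42-fold lower (1.36 to 1.49). SLC16A1 thus remained the more abundant transporter per length in both libraries, while the share of SLC16A3 in their summed FPKM was 3.38% (2.99 to 3.80) and 17.98% (17.02 to 18.98). The ratio of SLC16A3 to SLC16A1 reads was 6.27-fold higher in the shSIK2 library (5.45 to 7.22), a value that does not depend on the totals of the libraries. With the trend of GC content and length taken out, the log2 ratios were 1.57 for SLC16A3 and -0.27 for SLC16A1. That is a smaller gap than the 2.08 and -0.51 as deposited. The part of base composition in this difference was not tested. The summed FPKM of both was 52.9 and 43.8, scrambled first, so the pair as a whole was 1.21-fold lower, or 1.10-fold lower at equal totals.

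Of the glucose transporter genes of the set only SLC2A1 was measured, and its transcript level differed little. SLC2A1, which encodes GLUT1, the basal glucose transporter, stood at 9.56 and 12.1 FPKM, 1.27-fold higher in the shSIK2 library (1.15 to 1.39). SLC2A3, the high-affinity transporter GLUT3, was nearly absent, with 22 reads in the scrambled and 1 read in the shSIK2 library (ratio 22, interval 3.56 to 908). Its near copy SLC2A14 had 3 reads and 1 read, so how reads divide between them is uncertain. SLC2A6, a further glucose transporter family member outside the 36, was 2.55-fold higher (2.17 to 3.01), at 3.39 and 8.66 FPKM.

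The hexokinases, which trap glucose in the cell as its phosphate, exchanged rank. HK1, the form found in most tissues, stood at 26.6 FPKM in the scrambled and 35.1 FPKM in the shSIK2 library, 1.32-fold higher (1.26 to 1.39). HK2, the inducible form favoured by many tumours, stood at 30.5 and 20.1 FPKM, 1.51-fold lower (1.43 to 1.60). HK2 made up 53.4% of their summed FPKM in the scrambled library (52.1 to 54.7) and 36.5% in the shSIK2 library (35.2 to 37.7). The ratio of HK2 to HK1 reads was 1.99-fold lower (1.85 to 2.15). Their sum barely differed, at 57.1 and 55.2 FPKM, 1.03-fold lower as deposited and 1.07-fold higher at equal totals. HKDC1, a further hexokinase outside the 36, was 5.83-fold lower (3.72 to 9.51), from 134 reads to 23.

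**Figure D3:**
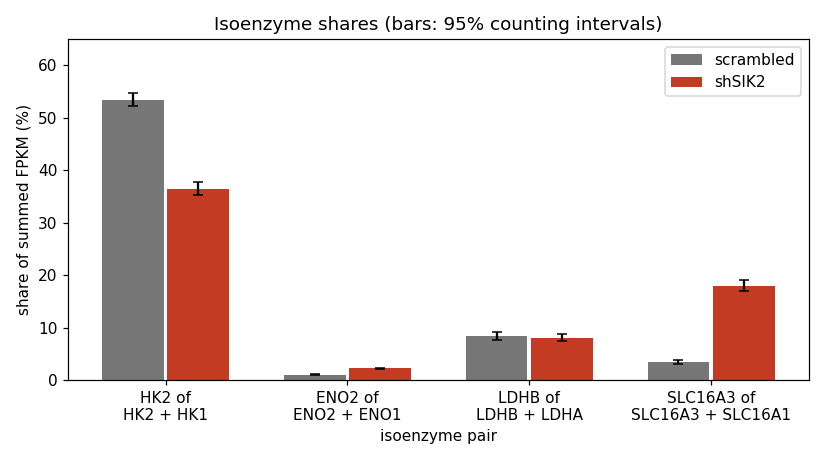
Share of the named gene in the summed FPKM of each isoenzyme pair (percent, vertical axis) in the scrambled (grey) and shSIK2 (red) libraries, with 95% counting intervals. The share of HK2 is 53.4% and 36.5%, that of SLC16A3 3.38% and 17.98%, that of ENO2 1.02% and 2.22%, and that of LDHB 8.34% and 8.02%, where the intervals overlap.

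The next steps of upper glycolysis, from GPI to the phosphofructokinases, stayed under 2-fold. GPI, the isomerase between glucose and fructose phosphate, stood at 16.3 and 22.3 FPKM. It was 1.37-fold higher in the shSIK2 library (1.30 to 1.43), or 1.51-fold at equal totals. The 3 phosphofructokinase genes encode the subunits of the committed step of glycolysis. PFKP, the platelet type and the most abundant of them, stood at 49.5 and 58.9 FPKM, 1.19-fold higher (1.14 to 1.24). PFKM and PFKL, the muscle and liver types, were 1.07-fold (1.01 to 1.14) and 1.10-fold (1.01 to 1.20) higher. As deposited, the mix of subunits was nearly the same in both libraries. The PFKP to PFKL ratio differed by 1.08-fold (0.98 to 1.19) and the PFKP to PFKM ratio by 1.11-fold (1.03 to 1.20). With the GC and length trend taken out, the log2 ratios were 0.11 for PFKP, 0.28 for PFKM and -0.38 for PFKL. The direction of the PFKP to PFKM ratio then turned, and PFKL lay farther below PFKP than as deposited.

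ALDOC, an aldolase best known from brain (chromosome 17, 28573115 to 28577264), was 4.06-fold higher (3.41 to 4.86). Its levels were 3.18 FPKM in the scrambled and 12.9 FPKM in the shSIK2 library, from 160 and 650 reads. ALDOA, the aldolase of most tissues and usually one of the most abundant transcripts of a cell, had only 36 and 61 reads here (0.54 and 0.91 FPKM). In the annotation 53.5% of the exon length of ALDOA is also exon of other genes, 42.3% of it on the same strand, where 1657 bases are shared with AC093512.2. That overlapping gene had 11 and 39 reads. LDHB and TIGAR also share exons with a gene on their own strand, over 33.4% and 42.6% of their length, and those overlapping genes had no reads. The sources used here do not say how the read counter treated shared bases. The part of this overlap in the count of ALDOA was not tested, and shares of the aldolases are therefore uncertain. ALDOC shares 10.1% of its exon length with an antisense gene.

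In the later steps of the pathway, which runs from triose phosphates to pyruvate, GAPDH stood apart from the steps around it. GAPDH (chromosome 12, 6533927 to 6538374), the dehydrogenase that makes NADH, stood at 344 FPKM in the scrambled and 714 FPKM in the shSIK2 library, 2.07-fold higher (2.04 to 2.11). TPI1, the triose phosphate isomerase just before it, was 1.35-fold higher (1.31 to 1.39), at 162 and 218 FPKM. PGK1, the kinase just after it, stood at 49.9 and 51.4 FPKM, a ratio of 1.03 (0.989 to 1.07). The GAPDH to PGK1 ratio was 2.02-fold higher in the shSIK2 library (1.93 to 2.11), and the GAPDH to TPI1 ratio 1.54-fold higher (1.49 to 1.60). As deposited the log2 ratios were 1.05 for GAPDH, 0.04 for PGK1 and 0.43 for TPI1. With the GC and length trend taken out they were 0.84, 0.28 and 0.24, so the gap between GAPDH and PGK1 was smaller. GAPDH has many processed copies in the genome. The 62 genes whose symbols name them as its pseudogenes together had 70 and 117 reads. These were 0.396% and 0.319% of the reads of GAPDH and these copies. Copies under other names were not counted.

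PGAM1, the phosphoglycerate mutase, stood at 96.1 and 93.5 FPKM, 1.03-fold lower as deposited (0.98 to 1.07) and slightly higher at equal totals (log2 ratio 0.10). Its near copy PGAM4 had 13 and 5 reads. BPGM, which makes the bisphosphoglycerate that loosens oxygen from haemoglobin in red cells, stood at 8.17 and 9.41 FPKM (1.15-fold, 0.997 to 1.33). ENO1, the main enolase, stood at 809 and 733 FPKM, 1.10-fold lower (1.09 to 1.12) and level at equal totals, where its log2 ratio was -0.002. ENO2, the neuronal enolase, stood at 8.30 and 16.6 FPKM, 2.003-fold higher (1.82 to 2.21) by reads. The ENO2 to ENO1 ratio was 2.21-fold higher in the shSIK2 library (2.003 to 2.44), yet ENO2 made up only 2.22% of their summed FPKM there (2.10 to 2.34), against 1.02% (0.937 to 1.10) in the scrambled library.

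PKM, the pyruvate kinase of tumour and muscle cells, stood at 227 and 266 FPKM, 1.17-fold higher (1.15 to 1.19). Its M1 and M2 splice forms cannot be told apart in values per gene. LDHA, the lactate dehydrogenase subunit that favours making lactate, stood at 78.6 and 110.7 FPKM, 1.41-fold higher (1.37 to 1.45). LDHB, the subunit of aerobic tissues, stood at 7.15 and 9.65 FPKM, 1.35-fold higher (1.18 to 1.55). Both subunits thus shared a direction, and the LDHB to LDHA ratio differed by less than counting error (0.96, interval 0.83 to 1.10).

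Among the regulators PFKFB3 and PFKFB4 were 2-fold higher, and PFKFB2, TIGAR and the PDK genes were not. PFKFB enzymes make and degrade the activator of phosphofructokinase. PFKFB3 (chromosome 10, 6144934 to 6254644), a form with mostly kinase activity, stood at 15.3 FPKM in the scrambled and 31.5 FPKM in the shSIK2 library, 2.05-fold higher (1.93 to 2.18). PFKFB4 had 28 and 121 reads (0.27 and 1.15 FPKM), 4.32-fold higher (2.85 to 6.77), on a low level. PFKFB2, the heart form, was 1.41-fold higher (1.29 to 1.55), at 4.53 and 6.40 FPKM. TIGAR, a phosphatase that opposes them, had 34 and 29 reads, a ratio whose interval held 1 (1.17-fold lower, 0.69 to 1.995), and it is among the genes with shared exons. Of the PDK kinases PDK2 was 1.38-fold higher (1.08 to 1.77) on 116 and 160 reads. PDK1, a target of hypoxia signalling, was 1.19-fold lower (1.04 to 1.37), and PDK3 was 1.18-fold lower with an interval that held 1 (0.996 to 1.39). PDK4 was nearly silent, with 3 reads and 2 reads. The summed FPKM of the 4 kinases was 6.85 and 6.45, 1.06-fold lower as deposited and 1.04-fold higher at equal totals. PDK2 shares 38.6% of its exon length with other genes, all of it on the opposite strand, and the sources used here do not say whether counting used the strand.

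In the pentose phosphate branch TKT and PGD were higher while RPIA and RPE were lower. TKT (chromosome 3, 53224707 to 53256052) encodes transketolase, which exchanges carbon units in the non-oxidative arm. It stood at 89.1 FPKM in the scrambled and 274 FPKM in the shSIK2 library, with 14531 and 44680 reads, a 3.07-fold difference (3.02 to 3.13). Of all measured genes 5.14% had a log2 ratio at least as high. TALDO1, the transaldolase that works beside it, stood at 33.1 and 37.8 FPKM, 1.14-fold higher (1.07 to 1.22), so the TKT to TALDO1 ratio was 2.69-fold higher in the shSIK2 library (2.51 to 2.88). RPIA and RPE interconvert the pentose phosphates. RPIA stood at 11.7 and 7.63 FPKM, 1.53-fold lower (1.30 to 1.81), and RPE at 23.6 and 14.7 FPKM, 1.61-fold lower (1.48 to 1.75). Their ratio to each other was nearly the same in both libraries (1.05, interval 0.87 to 1.26). In the oxidative arm PGD, which releases the carbon dioxide and makes NADPH, stood at 67.4 and 129 FPKM, 1.92-fold higher (1.84 to 2.00). PGLS, the lactonase before it, stood at 10.4 and 11.2 FPKM, 1.08-fold higher with an interval that held 1 (0.95 to 1.22). RPE shares 23.8% of its exon length with a gene on the opposite strand.

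Because TKT, PGD and PFKFB3 were higher while RPIA was lower, their promoter sequences are shown side by side. Each is the 250 bases before the start given by RefSeq on GRCh38.p14, written 5′ to 3′ on the strand of the gene, from the first window the table lists, and each holds at most 30 bases of annotated exon. Capitals mark the letters ACGTG, read on either strand. The core of the binding sequence of hypoxia-inducible factors is A or G followed by CGTG. Only its form with A was searched, and GCGTG was neither marked nor counted. TKT lies at chr3:53256023-53256272 (minus strand), PGD at chr1:10398814-10399063, PFKFB3 at chr10:6144671-6144920 and RPIA at chr2:88691423-88691672, the last 3 on the plus strand.
TKT: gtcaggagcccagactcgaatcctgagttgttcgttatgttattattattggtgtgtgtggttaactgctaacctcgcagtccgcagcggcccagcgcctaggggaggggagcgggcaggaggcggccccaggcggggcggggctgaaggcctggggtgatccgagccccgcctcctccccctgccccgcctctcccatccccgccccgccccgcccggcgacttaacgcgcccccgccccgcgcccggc
PGD: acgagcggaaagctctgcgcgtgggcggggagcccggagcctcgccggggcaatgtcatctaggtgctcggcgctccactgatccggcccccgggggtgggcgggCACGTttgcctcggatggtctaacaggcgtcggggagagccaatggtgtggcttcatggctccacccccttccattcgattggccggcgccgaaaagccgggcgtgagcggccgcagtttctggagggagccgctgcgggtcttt
PFKFB3: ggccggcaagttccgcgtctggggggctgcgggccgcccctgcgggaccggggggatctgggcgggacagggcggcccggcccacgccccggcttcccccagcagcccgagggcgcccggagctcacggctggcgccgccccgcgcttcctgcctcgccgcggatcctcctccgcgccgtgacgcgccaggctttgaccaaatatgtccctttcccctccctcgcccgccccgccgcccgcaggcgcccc
RPIA: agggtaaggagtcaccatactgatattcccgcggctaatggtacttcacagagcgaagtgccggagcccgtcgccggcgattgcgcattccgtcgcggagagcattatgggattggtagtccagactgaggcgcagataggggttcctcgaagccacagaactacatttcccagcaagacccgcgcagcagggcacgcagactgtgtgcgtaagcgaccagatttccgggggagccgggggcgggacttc
In these windows PGD held 1 match to ACGTG and the other 3 held none. Over the set, 33 of the 36 genes matched the RefSeq table, and again only the first listed window of each gene was read. The 250 bases of 12 of them (36.4%) held ACGTG on either strand, against 18.7% of the 27305 genes in the table. Of these 33 windows only 9 held at most 30 bases of annotated exon, as the sequences shown do. The windows of HK2, GPI, ALDOC and ENO2, among the 12, lay wholly in annotated exons. CACGTG, the E-box, which contains ACGTG, was in 3 of the 33 (9.09%), LDHA, ALDOC and GAPDH, against 6.49% of all. Of the 6 genes that were 2-fold higher 2 held ACGTG, and of the other 27 it was 10. The longer CACGTG was in 2 of the 6 and in 1 of the other 27. A match describes letters in a window and is not a bound site.

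Base composition moved with these differences. Across all measured genes, which are not replicates, the log2 ratio and the GC content of the exons were correlated (Spearman rho 0.28), and the part of base composition in the results here was not tested. All 6 of the higher genes had a GC content between 55.7% and 66.04%. In that upper class, of at least 55% GC, 6 of 13 genes of the set were 2-fold higher, against 19.7% of all 3463 measured genes in it; the medians were 0.99 and 0.24. Below 50% GC 0 of 10 genes of the set were 2-fold higher, beside 6.97% of all measured genes, and between 50% and 55% it was 0 of 9, beside 10.8%. With the trend with GC content and length removed, 5 of the 6 still passed 2-fold (10.7% of all measured genes did, and 6.86% were lower), with values between 1.02 and 1.93 on the log2 scale, and GAPDH lay at 0.84. PFKL and PGLS, both rich in GC, then turned from slightly higher to lower (-0.38 and -0.24), and PDK1 from lower to 0.06.

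**Figure D4:**
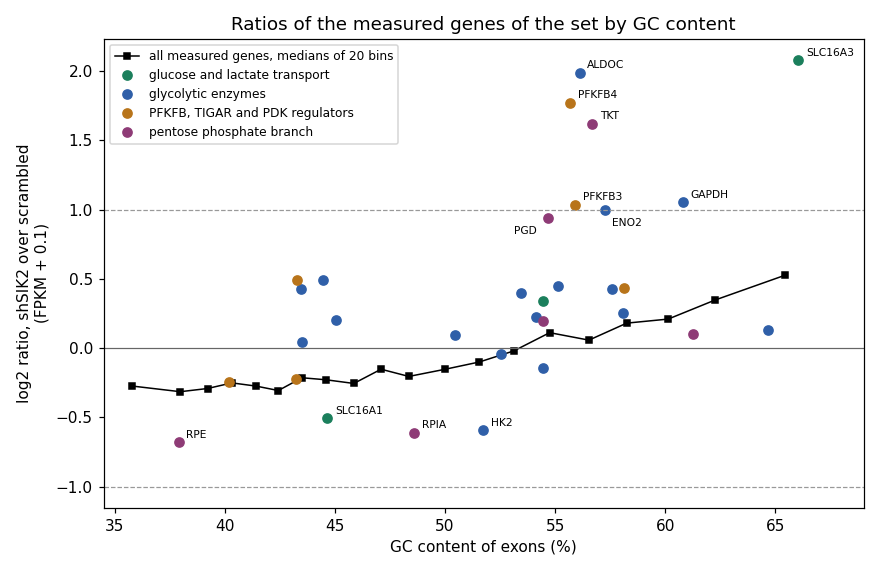
Log2 ratio (FPKM plus 0.1, shSIK2 over scrambled) against the GC content of exons for the 32 measured genes of the set, coloured by role, with medians of all measured genes in 20 GC bins as black squares and 2-fold as dashed lines. The black line climbs with GC content, and SLC16A3, ALDOC, PFKFB4, TKT, PFKFB3 and GAPDH stand above it and above 2-fold, all at over 55% GC.

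Genomic position was examined for the same genes. TPI1, GAPDH and ENO2 lie within 1 Mb of each other on chromosome 12, and the 35 other measured genes around GAPDH, within 1 Mb on either side, had a median log2 ratio of 0.25. Around the remaining higher genes the neighbours' medians were 0.23 at SLC16A3, -0.05 at TKT, -0.06 at PFKFB4, -0.21 at PFKFB3 and -0.23 at ALDOC. These genes were picked for their high ratios, so their distance from the neighbours is a description.

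Other paths of glucose and pyruvate were read from further lists of genes, chosen with earlier results of these data known. As the shares to set beside their counts, 11.0% of all measured genes were 2-fold higher and 8.28% lower. At equal totals the shares were 13.4% and 6.04%. Of 11 genes for the entry of pyruvate into mitochondria, all were measured and none reached 2-fold (median 0.01); the largest difference was PDP1, the phosphatase that reactivates pyruvate dehydrogenase, 1.51-fold lower (1.40 to 1.63). The citric acid cycle had a median of -0.04 over 16 genes, of which SDHA passed 2-fold upward (2.36-fold, 2.23 to 2.50) and 0 downward. The hexosamine branch, which uses fructose phosphate to make the sugar donor of glycosylation, had 3 of its 5 genes past 2-fold downward and 0 upward. UAP1 stood at 499.9 FPKM in the scrambled and 194 FPKM in the shSIK2 library, 2.58-fold lower (2.52 to 2.63). GNPNAT1 was 2.83-fold lower (2.60 to 3.08) and GFPT1, the entry enzyme, 2.04-fold lower (1.94 to 2.14); its relative GFPT2 was 1.75-fold higher (1.63 to 1.87). At equal totals GFPT1 fell short and 2 remained.

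Shuttles pass the electrons of cytosolic NADH to mitochondria. Of their 8 measured genes 2 passed 2-fold downward and 0 upward, beside 8.28% and 11.0% of all measured genes. The 2 were GOT1 (2.57-fold, 2.41 to 2.74) and SLC25A13 (2.43-fold, 2.09 to 2.82). Of 10 measured glycogen genes (median 0.27) and 4 of gluconeogenesis (median 0.17) none reached 2-fold as deposited. PYGB, the brain glycogen phosphorylase, was 1.57-fold lower (1.52 to 1.62), from 140.8 to 89.6 FPKM, while PHKA2, a phosphorylase kinase subunit, was 1.56-fold higher (1.31 to 1.85) and GYG1, the glycogen primer, 1.38-fold higher (1.28 to 1.49). PCK2, which makes phosphoenolpyruvate in mitochondria, was 1.90-fold lower (1.77 to 2.03). The phosphoglucomutases PGM2 and PGM1 were 1.89-fold (1.56 to 2.30) and 1.48-fold (1.33 to 1.65) higher, and PGM2 passed 2-fold at equal totals. Of 11 measured isoenzymes and transporters outside the 36, SLC2A6 and EMB were 2-fold higher and HKDC1 was lower. EMB, a chaperone of monocarboxylate transporters, was 2.76-fold higher (2.38 to 3.21).

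A mixed list held transcription factors of glycolytic genes and other proteins, among them ARRDC4, EGLN1 and VHL. Its 11 measured genes had a median log2 ratio of -0.49. As deposited 1 passed 2-fold upward (ARRDC4) and 1 downward (EGLN1), neither a transcription factor. Of all measured genes 11.0% and 8.28% did. ARRDC4, a glucose-responsive arrestin, was 3.47-fold higher (2.91 to 4.15), at 2.36 and 8.18 FPKM. HIF1A, the oxygen-regulated subunit of the hypoxia factor, stood at 108 and 215 FPKM, 1.99-fold higher (1.94 to 2.04), and passed 2-fold at equal totals. EGLN1 and VHL, which mark that subunit for degradation, were 2.57-fold (2.46 to 2.68) and 1.99-fold (1.89 to 2.09) lower. These are transcript levels, and the protein was not measured.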

How the data were processed

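Per the labels' protocols, RNA was extracted with Trizol and sequenced from standard Illumina libraries. The submitters' processing notes name HISAT2 2.0.5 and hg18; for the counter, annotation and formula of FPKM, the sources used here say nothing. The deposited values are FPKM per Ensembl gene, per the file headers, without counts. Groups came from the sample titles, 1 library each, so no test was made.

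All 58735 identifiers matched GENCODE release 29 (GRCh38), which gave symbols, positions, exon lengths and GC content; the build used for alignment stays unsettled. FPKM times exon length gave whole multiples of 1 step for 100% of values above 0 (tolerance 0.001), taken as reads. The step is the same in both tables, so the values were not scaled to each total. Log2 ratios used a pseudocount of 0.1 FPKM, which understates ratios of low genes. Intervals of a ratio of 2 genes are exact and conditional. Without molecular identifiers, reads may be copies of 1 molecule. GC and length trends were removed as medians in 20 bins each. Steps were tested on simulated data. Alternatives were equal totals or upper quartiles, other pseudocounts and minimums, a 1.5-fold rule, reads in place of FPKM, and pseudogene reads added. All 36 genes are named; from each other list at most 4 with the largest ratios. The genes and lists were chosen with earlier results of these data known, and the overlap and neighbour values were added after the data were seen. Scripts used scipy 1.17.1, pandas 2.3.3, numpy 2.4.6 and matplotlib 3.10.9 under Python 3.11.15.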

Additional observations from a re-analysis of the deposited data

How the results depend on the processing

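With 1 library per group no replicate could be left out. No paired analysis was possible because each group has 1 library and the labels carry no replicate numbers. The number of genes of the set at least 2-fold higher, 6, ranged from 4 to 8, within 1.5 times. It was 4 with a pseudocount of 1 FPKM, where 5.91% of all measured genes were higher. It was 8 at equal totals (13.4% of all measured genes), at equal upper quartiles (11.9%) and under a 1.5-fold rule (19.7%). The number lower was 0, except for 1 (SLC2A3) with no minimum and 3 (HK2, RPIA and RPE) under the 1.5-fold rule, beside 21.3% of all measured genes. Those 3 fell short of 1.5-fold at equal totals. The median log2 ratio stayed between 0.24 and 0.43. Leaving out the 3 measured genes with over 20% of their exon length shared, chosen after seeing the data, gave 6, 0 and 0.25. Counted in reads and not per length, shares changed with exon length: ENO2 0.826% and 1.81%, LDHB 4.19% and 4.02%, SLC16A3 5.59% and 27.1%, scrambled first. The share of ALDOC in the reads of ALDOC and ALDOA, uncertain because of shared exons, was 91.4% in the shSIK2 library against 93.4% per length. No gene at least 2-fold apart changed direction in any alternative run. Adding pseudogene reads moved none of 15 ratios beyond its counting interval; equal totals moved 20 of 36, and removing the GC and length trend 21 of 32. Depth limits SLC2A3, PDK4, TIGAR and ALDOA, with under 70 reads in each library.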
